A study of Capra hircus with 20 samples.

Results

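Oxytocin and vasopressin are made by neurons of the hypothalamus. The genes described here are OXT and AVP, which encode these peptides, the receptor genes OXTR and AVPR1A, and SIM1, OTP and POU3F2, which encode transcription factors of this neuron lineage. They were chosen by name from what is known of these neurons, though with earlier results of these data known. These are 7 of the 21071 genes with values, and all 7 were found by their NCBI Gene ID in the annotation of the goat genome ARS1.2. All 7 passed the filter on low values.

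RNA was sequenced from the hypothalamus of 20 female Jining grey goats, each goat giving 1 strand-specific library after removal of rRNA. The goats were healthy, came from 1 farm and were kept in the same way. They formed 4 groups of 5 goats by age, named D1 (1 day), M2 (60 days), M4 (120 days) and M6 (180 days). The comparisons ask how expression of these genes differed between stages from birth to sexual maturity. The values are FPKM, the fragments of a gene divided by the length of its exons and by the size of its library, so levels can be compared between genes. How many reads each value rests on is unknown.

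Magnocellular neurons of the paraventricular and supraoptic nuclei make oxytocin or vasopressin as part of a larger precursor that also holds a carrier protein, neurophysin. The peptides are cut from the precursor in granules, carried along axons to the posterior pituitary and released into blood. Oxytocin is known for milk ejection and contraction of the uterus, and vasopressin for water retention by the kidney. Vasopressin is also made by neurons of the suprachiasmatic nucleus, and smaller neurons of the paraventricular nucleus release both peptides within the brain.

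AVP and OXT are neighbours in the goat genome. In ARS1.2, AVP lies on chromosome 13 from 51447207 to 51449418, and OXT lies on chromosome 13 from 51459011 to 51459932. They are 9592 bp apart, with 0 annotated genes between them. The exons that encode neurophysin are alike in these genes, and how reads of that stretch were divided between them was not tested. AVPR1A lies on chromosome 5 from 49673850 to 49677323, and OXTR on chromosome 22 from 17594776 to 17607958. SIM1 lies on chromosome 9 from 36743421 to 36818375, POU3F2 on chromosome 9 from 38186127 to 38190224, and OTP on chromosome 10 from 92440700 to 92450335. All 7 are annotated as protein-coding.

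The 20 libraries did not hold the same mix of brain tissue. Of 14 marker genes of the hypothalamus, between 0 and 8 reached 1 FPKM in a library. The count was 0 in M4 replicates 1 and 2, and 8 in M2 replicate 1 and M6 replicate 4. By stage it was 1 to 7 (D1), 2 to 8 (M2), 0 to 2 (M4) and 1 to 8 (M6). NKX2-1, a transcription factor that defines much of the hypothalamus, reached 1 FPKM in 7 libraries and was listed at 0 in 4. Summed markers of striatum, cortex or thalamus exceeded 5 times their median over the libraries in 5 libraries. These were D1 replicate 4, M2 replicate 4 and M6 replicate 2 for striatum (448.5, 125 and 186 FPKM), M4 replicate 1 for cortex (70.6 FPKM) and M4 replicate 2 for thalamus (115 FPKM). Cortex markers also exceeded this level in D1 replicate 4 (26.9 FPKM) and M2 replicate 4 (15.5 FPKM). The 9 pituitary markers with values summed to at most 4.90 FPKM in any library. The FPKM of all genes summed to between 260199 and 377479 per library.

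OXT and AVP were high in the same 5 libraries and low in the other 15. OXT was 22.6, 0.231, 0.888, 0 and 0.311 FPKM in D1 replicates 1 to 5. It was 4.47, 0, 1.28, 0.162 and 0 FPKM in M2 replicates 1 to 5. It was 0.0965, 0, 0, 86.3 and 0 FPKM in M4 replicates 1 to 5. At D1 and M4 a single library thus stood above 1 FPKM, and OXT was listed at 0 in 6 libraries of D1, M2 and M4. In M6 replicates 1 to 5, OXT was 2.32, 36.9, 0.804, 412.9 and 278.8 FPKM. M6 was the stage with 0 libraries listed at 0, but its lowest 2 libraries lay within the range of D1 and M2.

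AVP was listed above 0 in all 20 libraries. Its values in D1 replicates 1 to 5 were 175.5, 1.01, 2.84, 0.286 and 0.600 FPKM. In M2 replicates 1 to 5 AVP was 1.48, 0.480, 0.974, 2.57 and 3.15 FPKM. M2 was the stage without a high AVP library. In M4 replicates 1 to 5 AVP was 0.973, 1.24, 0.302, 392 and 0.246 FPKM, and in M6 replicates 1 to 5 it was 1.56, 57.7, 1.83, 201 and 64.0 FPKM. The highest AVP library was M4 replicate 4, whereas the highest OXT library was M6 replicate 4. D1 replicate 1, M4 replicate 4 and M6 replicates 2, 4 and 5 held 98.8% of the summed FPKM of OXT and 97.9% of that of AVP. In bulk tissue, fewer neurons of a type and less RNA per neuron cannot be told apart.

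**Figure D1:**
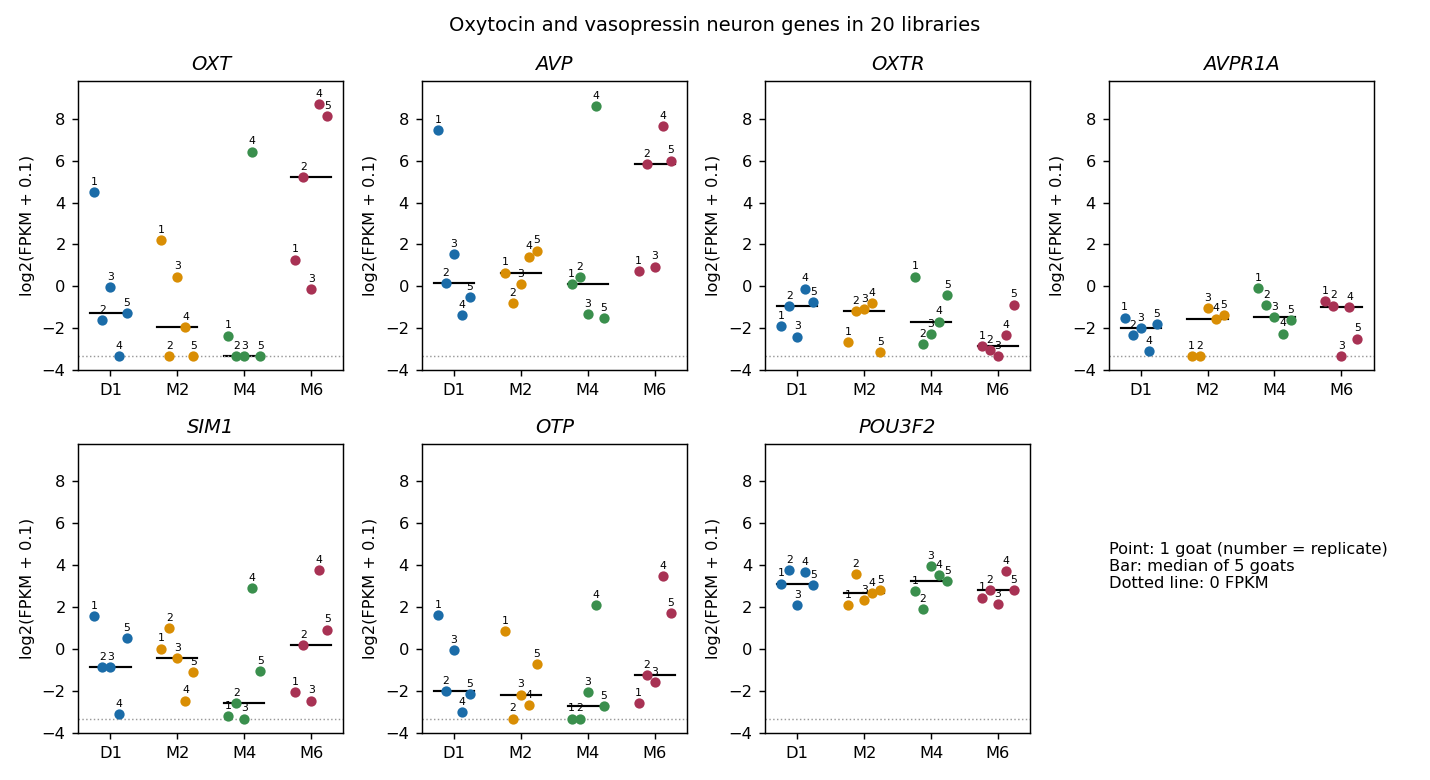
Expression of the 7 genes in each library, as log2(FPKM + 0.1) by stage. Each point is 1 goat with its replicate number, bars are medians of 5 goats, and the dotted line is 0 FPKM. OXT and AVP have 5 high libraries each, D1 replicate 1, M4 replicate 4 and M6 replicates 2, 4 and 5, while POU3F2 stays between 3.64 and 15.3 FPKM.

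The spread between goats of one stage was wide for these peptide genes. The SD within stages on the log2(FPKM + 0.1) scale was 3.49 for OXT and 3.21 for AVP, against a median of 0.57 over all 16771 genes tested. In the order of genes from the most variable, OXT was at place 6 and AVP at place 11. The genes on either side of the pair did not share this spread. UBOX5, a ubiquitin ligase gene on the AVP side, was between 1.44 and 5.58 FPKM in the 20 libraries, with an SD within stages of 0.47. MRPS26, a mitochondrial ribosomal protein gene on the OXT side, was between 9.97 and 36.9 FPKM, with an SD within stages of 0.42.

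Between stages, OXT was highest at M6, but the differences did not pass the threshold. The test was limma on log2(FPKM + 0.1) over all 16771 genes, and a gene was called where the log2 fold change was 1 or more in either direction with a Benjamini-Hochberg adjusted p under 0.05. The log2 fold change of OXT was 4.97 in M6 vs. D1 (standard error 1.97, 95% confidence interval 0.87 to 9.08, unadjusted p = 0.0199, adjusted p = 0.618). It was 5.81 in M6 vs. M2 (95% confidence interval 1.71 to 9.92, unadjusted p = 0.00777, adjusted p = 0.746) and 5.81 for M6 vs. M4 (95% confidence interval 1.70 to 9.91, unadjusted p = 0.00783, adjusted p = 0.700). These fold changes rest on the 0.1 added to libraries at 0. Leaving out each library in turn moved the value in M6 vs. D1 between 3.96 (without M6 replicate 4) and 6.19 (without D1 replicate 1). Among D1, M2 and M4 the log2 fold changes of OXT were between -0.84 and 0.01, and their sign depended on single libraries. Without D1 replicate 1 both M2 vs. D1 and M4 vs. D1 turned positive, at 0.37 and 0.38.

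For AVP the log2 fold change was 2.78 in M6 vs. D1 (95% confidence interval -0.98 to 6.55, adjusted p = 0.745 from limma). It was 3.62 in M6 vs. M2 (95% confidence interval -0.15 to 7.38, adjusted p = 0.746) and 2.98 in M6 vs. M4 (95% confidence interval -0.79 to 6.74, adjusted p = 0.784). The intervals of AVP each held 0. In M4 vs. D1 the log2 fold change of AVP was -0.20, and it was 1.31 without D1 replicate 1 and -2.03 without M4 replicate 4.

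**Figure D2:**
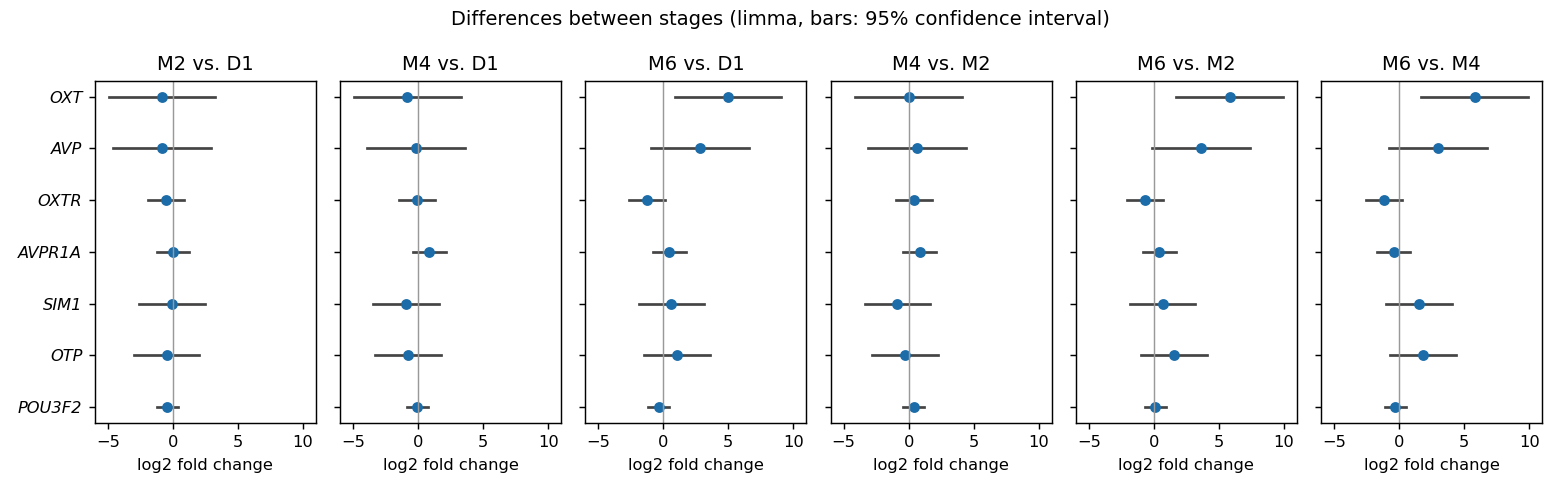
Log2 fold change of each gene in the 6 comparisons of stages, from limma on log2(FPKM + 0.1). Points are the estimates and bars their 95% confidence intervals. The interval of OXT lies above 0 in the 3 comparisons of M6, from 0.87 to 9.08 in M6 vs. D1, yet the adjusted p there is 0.618 or more.

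Over the 7 genes and 6 comparisons, 0 of 42 tests were called by limma. Among all genes tested, the share called was 0.0537% in M4 vs. D1 and 0.00596% in M6 vs. D1, and 0% for M2 vs. D1, M4 vs. M2, M6 vs. M2 and M6 vs. M4. At an unadjusted p under 0.05 there were 3 of 42, the 3 values of OXT at M6. The share of all genes at that level was 7.41% (M6 vs. D1), 6.14% (M6 vs. M2) and 6.87% (M6 vs. M4). It was 15.6% in M2 vs. D1, 8.71% in M4 vs. D1 and 8.68% in M4 vs. M2, where 0 of the 7 genes were found. The moderated F test over the 4 stages called 0 of 7 (0.00596% of all genes) and gave OXT an unadjusted p of 0.0213 and an adjusted p of 0.423. It was the 1 gene of the 7 with an unadjusted p under 0.05 in that test (10.4% of all genes). In 0 of 42 cases did the libraries of a pair of stages not overlap. For all genes that share was 3.82% for M2 vs. D1, 2.84% for M6 vs. D1 and 1.93% for M4 vs. D1. It was 1.09% for M4 vs. M2, 0.775% for M6 vs. M4 and 0.757% for M6 vs. M2.

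In M6 vs. D1, 5 of the 7 genes had a higher mean and 2 a lower mean, with a median log2 fold change of 0.62, against -0.05 over all genes tested. The median of the 7 genes was 0.67 for M6 vs. M2 and 1.53 for M6 vs. M4, against 0.02 and 0.04 over all genes. It was -0.49 in M2 vs. D1, -0.20 in M4 vs. D1 and 0.38 in M4 vs. M2, against -0.07, -0.07 and -0.02. Comparisons that share a stage share its libraries. The medians at M6 are the values of SIM1 alone, and that of SIM1 in M6 vs. D1 was -0.31 without M6 replicate 4. OXT, AVP, SIM1 and OTP were high in several of the same libraries, so the 7 genes are not independent. Markers of the hypothalamus also differed between the stages. Their summed level was 3.12 to 332 FPKM in D1 libraries (median 11.6), 8.10 to 33.3 in M2 (12.6), 1.01 to 5.87 in M4 (3.59) and 4.44 to 564 in M6 (32.7). Most of the highest sums came from the peptide gene PMCH, at 303 FPKM in D1 replicate 1 and 375 in M6 replicate 5. The part of these markers in the differences of OXT and AVP was not tested.

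OXT exceeded AVP in some libraries and fell far below it in others. A plain ratio of the genes within a library does not depend on how the library was scaled. In the 5 libraries with AVP at 57.7 FPKM or more, OXT divided by AVP was 0.129 in D1 replicate 1, 0.220 in M4 replicate 4, 0.640 in M6 replicate 2, 2.05 in M6 replicate 4 and 4.36 in M6 replicate 5. AVP was thus the higher of the pair in the D1 and M4 libraries, and OXT in M6 replicates 4 and 5. For the stages, log2((OXT + 0.1)/(AVP + 0.1)) was calculated in each of the 20 libraries. With the added 0.1, this ratio does depend on scaling where levels are low. It was -2.95, -1.74, -1.57, -1.95 and -0.77 in D1 replicates 1 to 5. In M2 replicates 1 to 5 it was 1.53, -2.54, 0.36, -3.35 and -5.02. In M4 replicates 1 to 5 it was -2.45, -3.75, -2.01, -2.18 and -1.79. M4 had no library with OXT above AVP, and M2 had the widest range. In M6 replicates 1 to 5 it was 0.54, -0.64, -1.09, 1.04 and 2.12. Each M6 library was above each M4 library, while the lowest M6 library lay within the range of D1.

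The mean of this log2 ratio was 0.39 at M6, -1.80 at D1, -1.80 at M2 and -2.44 at M4. The difference was 2.83 in M6 vs. M4 (two-sided exact permutation test, p = 0.00794, the smallest this design can give, adjusted p = 0.0476 over 6 comparisons). It was 2.19 in M6 vs. D1 (exact permutation p = 0.0159, adjusted p = 0.0476) and 2.20 in M6 vs. M2 (exact permutation p = 0.143, adjusted p = 0.286). In M2 vs. D1, M4 vs. D1 and M4 vs. M2 the adjusted p was between 0.381 and 1. With 1 FPKM added in place of 0.1, a setting tried once the values were known, the differences were 1.50 (M6 vs. D1) and 1.42 (M6 vs. M4), each with an adjusted exact permutation p of 0.190. In M4, 3 of the 5 libraries had OXT at 0, so their ratios are set by AVP and by the value added. The call in M6 vs. D1 was lost without D1 replicate 1, 2, 3 or 4 and without M6 replicate 1, 2, 4 or 5, and that in M6 vs. M4 without M6 replicate 1, 2, 4 or 5. In those smaller sets M6 and M4 still did not overlap, so p in M6 vs. M4 was the smallest they allow. A call then needed another comparison at the same p, so its loss does not show dependence on single goats. The differences without 1 library were between 1.76 and 2.56 (M6 vs. D1) and between 2.40 and 3.20 (M6 vs. M4).

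**Figure D3:**
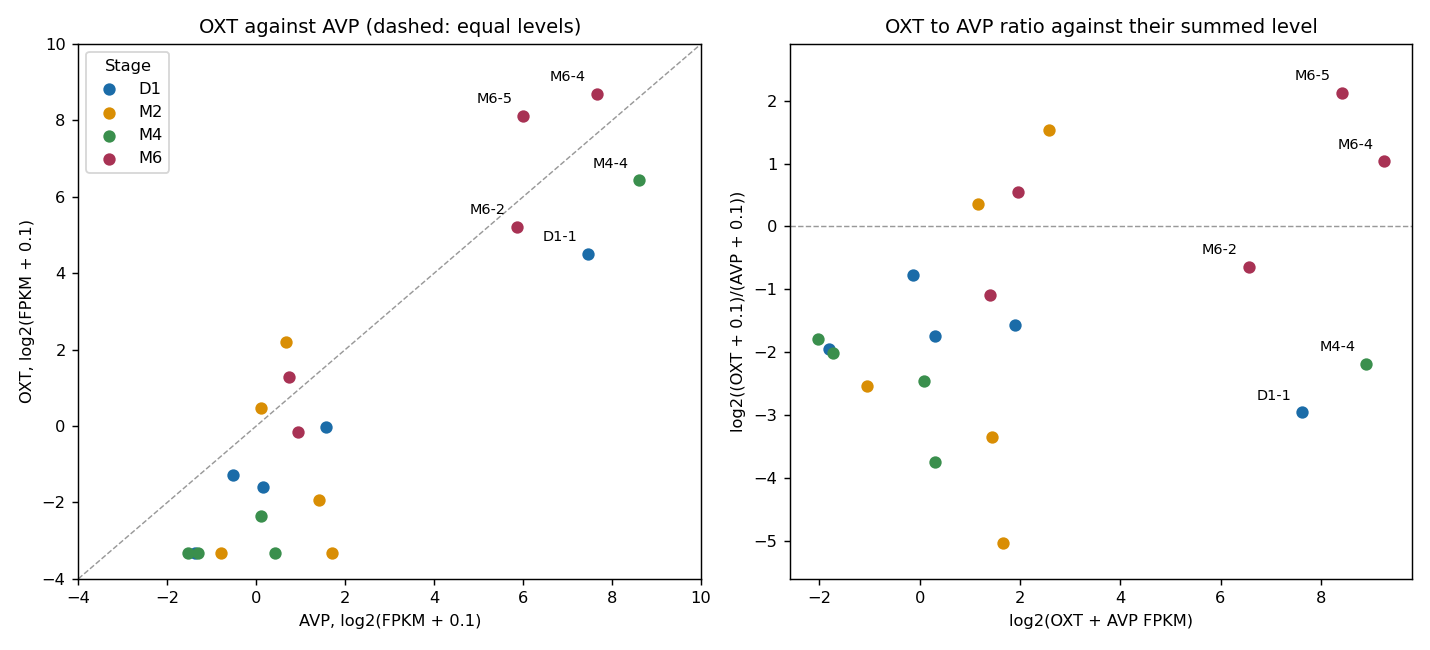
Left, OXT against AVP in each library, as log2(FPKM + 0.1), with equal levels on the dashed line. Right, log2((OXT + 0.1)/(AVP + 0.1)) against the log2 of their summed FPKM. Points are libraries coloured by stage, and the 5 libraries with AVP at 57.7 FPKM or more are named. OXT is above AVP in M6-4 and M6-5, by 2.05 and 4.36 times, and below it in D1-1, M4-4 and M6-2.

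The receptor genes were near the lower end of what was measured. OXTR encodes the oxytocin receptor, which couples to Gq proteins. It was between 0.0893 and 0.830 FPKM at D1, with a median of 0.414, and between 0.0145 and 0.468 at M2, with a median of 0.338. It was between 0.0491 and 1.28 FPKM at M4, with a median of 0.212, and between 0 and 0.447 at M6, with a median of 0.0400. The highest library was M4 replicate 1, at 1.28 FPKM, where OXT was 0.0965 FPKM and the cortex markers were high. The log2 fold change of OXTR was -1.26 in M6 vs. D1 (95% confidence interval -2.64 to 0.13, unadjusted p = 0.0725, adjusted p = 0.711 from limma). The stages had no steady order. The median was lower at each later stage, but the fitted log2 fold change in M4 vs. M2 was 0.44 (adjusted p = 0.859 from limma), and the stages overlapped.

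AVPR1A encodes the V1a receptor, the vasopressin receptor found most widely in brain. It reached 1 FPKM in 0 libraries. Its median FPKM was 0.151 for D1, 0.245 for M2, 0.262 for M4 and 0.403 for M6, and its highest value was 0.841 FPKM in M4 replicate 1. It was listed at 0 in M2 replicates 1 and 2 and M6 replicate 3. In M4 vs. D1 the log2 fold change of AVPR1A was 0.87 (95% confidence interval -0.38 to 2.12, adjusted p = 0.736 from limma). The median was higher at each later stage, but the fitted log2 fold change in M6 vs. M4 was -0.42 (adjusted p = 0.911 from limma), and each pair of stages overlapped. On the log2(FPKM + 0.1) scale, the SD within stages was 1.08 for OXTR and 0.95 for AVPR1A. The other vasopressin receptor genes, AVPR1B and AVPR2, reached at most 0.0304 and 0.0627 FPKM and were not tested.

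SIM1 and OTP are transcription factor genes without which these neurons do not form in the mouse. SIM1 was 2.92, 0.452, 0.448, 0.0170 and 1.34 FPKM in D1 replicates 1 to 5, and 0.917, 1.93, 0.643, 0.0814 and 0.361 in M2 replicates 1 to 5. It was 0.00836, 0.0666, 0, 7.39 and 0.380 FPKM in M4 replicates 1 to 5, and 0.140, 1.05, 0.0822, 13.6 and 1.80 in M6 replicates 1 to 5. M6 replicate 4, M4 replicate 4 and D1 replicate 1 were its highest libraries, in that order, and all 3 were among the 5 libraries high in OXT. M2 replicate 2 was next at 1.93 FPKM, and there OXT was listed at 0. The log2 fold change of SIM1 in M6 vs. M4 was 1.53 (95% confidence interval -0.99 to 4.06, adjusted p = 0.822 from limma), and in M6 vs. D1 it was 0.62 and turned to -0.31 without M6 replicate 4.

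OTP was 2.98, 0.150, 0.867, 0.0247 and 0.126 FPKM in D1 replicates 1 to 5, and 1.72, 0, 0.122, 0.0576 and 0.503 in M2 replicates 1 to 5. It was 0, 0, 0.140, 4.21 and 0.0498 FPKM in M4 replicates 1 to 5, and 0.0661, 0.326, 0.237, 11.1 and 3.17 in M6 replicates 1 to 5. Its highest 4 libraries were M6 replicate 4, M4 replicate 4, M6 replicate 5 and D1 replicate 1, all high in OXT and AVP. M6 replicate 2, the other high library of the peptides, was low in OTP at 0.326 FPKM. The log2 fold change of OTP at M6 was 1.07 against D1, 1.57 against M2 and 1.83 against M4 (limma, adjusted p = 0.845, 0.772 and 0.788). The SD within stages was 2.12 for both SIM1 and OTP on the log2(FPKM + 0.1) scale, at places 104 and 102 of the 16771 genes from the most variable.

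POU3F2, also named Brn-2, is needed for the last steps of the same lineage and is expressed in many other neurons. It had the highest median of the 7 genes and was above 3.6 FPKM in every library. It was 9.43 ± 3.76 FPKM in D1 libraries and 9.30 ± 4.47 in M4 libraries (SD, n = 5 each), and lower in M2 (6.80 ± 2.99) and M6 (7.33 ± 3.38). The log2 fold changes lay between -0.45 in M2 vs. D1 and 0.38 in M4 vs. M2, and the smallest adjusted p was 0.599, in M2 vs. D1 (limma). Its SD within stages was 0.66 on the log2(FPKM + 0.1) scale, near the median of all genes. Over the 20 libraries the median was 6.95 FPKM for POU3F2, 1.52 for AVP, 0.558 for OXT, 0.450 for SIM1, 0.236 for AVPR1A, 0.189 for OXTR and 0.145 for OTP. OXT, AVP, SIM1, AVPR1A, OXTR and OTP overlapped widely in this order, while POU3F2 lay above both receptor genes in every library.

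The 5 libraries high in OXT and AVP did not share one marker profile. Of the 14 hypothalamus markers, 7 reached 1 FPKM in D1 replicate 1, 2 in M4 replicate 4, 3 in M6 replicate 2, 8 in M6 replicate 4 and 4 in M6 replicate 5. M2 replicate 1 also had 8, with OXT at 4.47 FPKM and AVP at 1.48. PMCH, the gene of melanin-concentrating hormone of the lateral hypothalamus, was 303 FPKM in D1 replicate 1 and 375 in M6 replicate 5. HCRT, the orexin gene, was 183 FPKM in M6 replicate 5 and at most 19.5 FPKM in any other library. M6 replicate 2 was the library of the 5 with high striatum markers, at a summed 186 FPKM. In the other libraries high in markers of striatum, cortex or thalamus, OXT was 0 in D1 replicate 4, 0.162 in M2 replicate 4, 0.0965 in M4 replicate 1 and 0 FPKM in M4 replicate 2. Without these 5 libraries, a set chosen after the data were seen, 0 of the 7 genes were called in any comparison by limma. Markers of the suprachiasmatic nucleus summed to 13.7 FPKM in D1 replicate 1, 17.6 in M4 replicate 4 and 11.5 in M6 replicate 2. They summed to 27.1 in M6 replicate 4 and 12.2 in M6 replicate 5, and all libraries ranged from 9.05 to 84.9. RORB, at 4.03 FPKM or more in every library, made part of each sum. Of the 8 markers, 5 reached 1 FPKM in M6 replicate 4, and also in D1 replicate 3 and M2 replicate 4, where OXT and AVP were low. The count was 2 in D1 replicate 1 and 3 in M4 replicate 4 and M6 replicates 2 and 5.

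**Figure D4:**
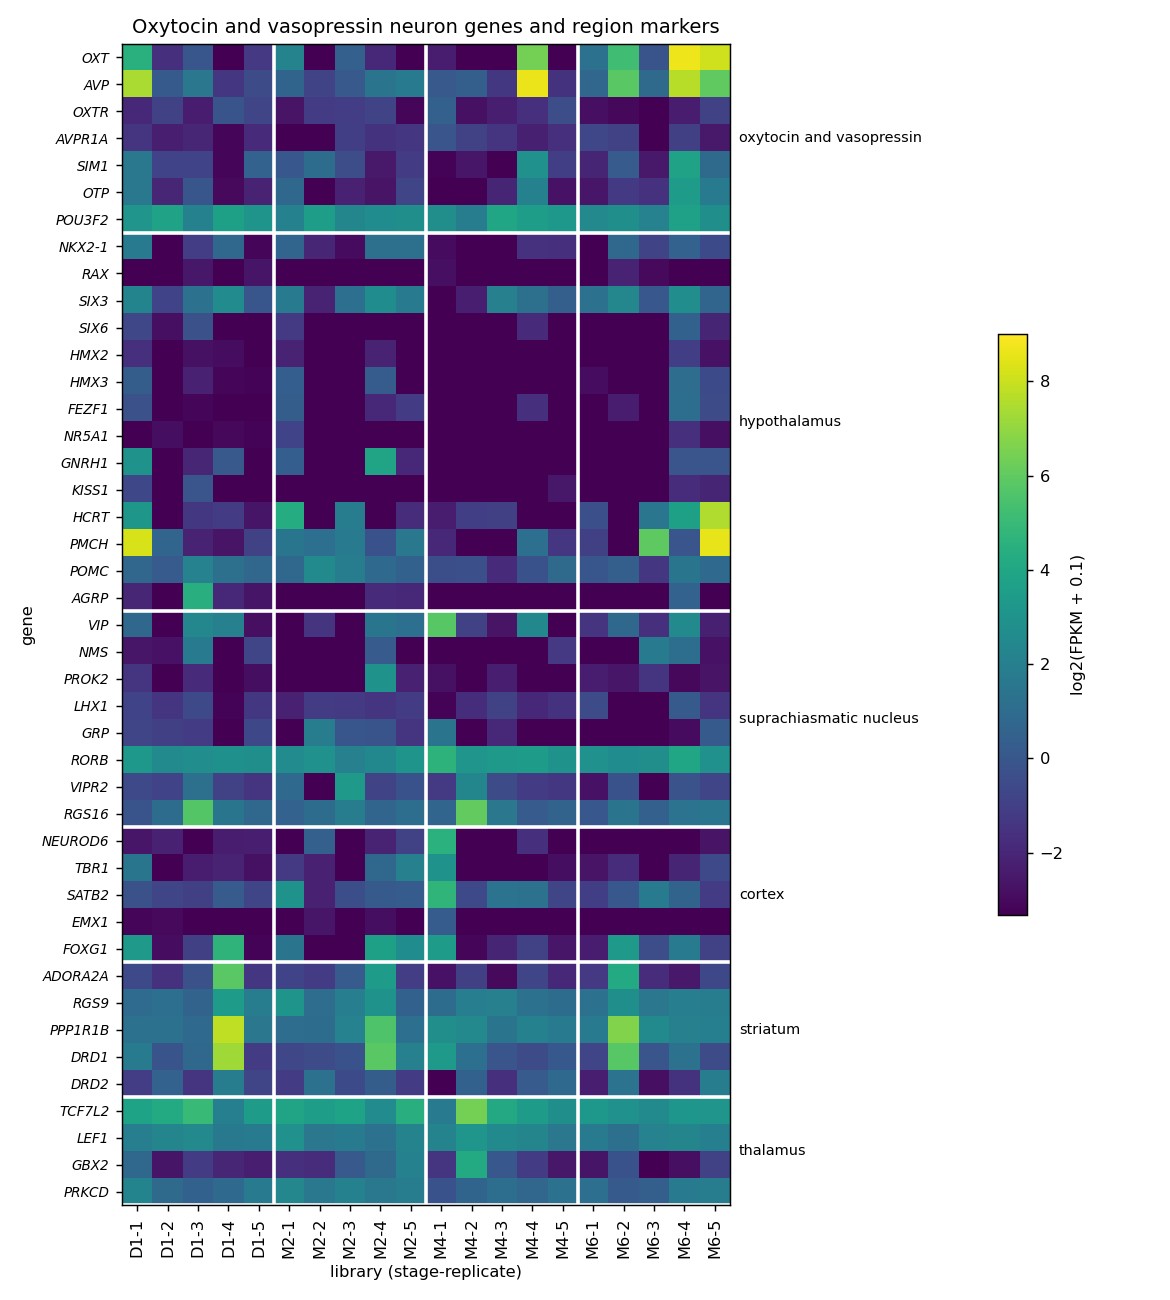
Level of the 7 genes and of markers of the hypothalamus, suprachiasmatic nucleus, cortex, striatum and thalamus in each library, coloured by log2(FPKM + 0.1). Columns are libraries in the order of stage and replicate. D1-1, M4-4, M6-2, M6-4 and M6-5 are bright for OXT and AVP, and of these M6-2 is also bright for striatum markers, with a summed 186 FPKM.

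Across goats, SIM1, OTP and OXT varied together. All 21 pairs of the 7 genes were examined on log2(FPKM + 0.1), with 100000 permutations of the libraries. AVP fell into 2 separate clusters, 15 libraries up to 3.15 FPKM and 5 from 57.7 FPKM, so its 6 pairs were examined in the 15 lower libraries. Pearson's r between OXT and OTP was 0.86 over 20 libraries (permutation p = 5.00e-05, adjusted p = 0.000525), and Spearman's rho was 0.77 (permutation p = 0.000160, adjusted p = 0.00336). Without the 2 libraries farthest from the median of OXT, r was 0.77. Between OXT and SIM1, r was 0.76 (permutation p = 0.000120, adjusted p = 0.000840) and rho 0.69 (permutation p = 0.00104, adjusted p = 0.0109), and r was 0.67 without the 2 farthest libraries. Between SIM1 and OTP, r was 0.78 (permutation p = 5.00e-05, adjusted p = 0.000525) and rho 0.63 (permutation p = 0.00323, adjusted p = 0.0226), and r was 0.60 without the 2 farthest libraries.

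These 3 relations also held after the stage means were removed. With permutation within stages, r was 0.88 for OXT and OTP (adjusted permutation p = 0.00357), 0.82 for OXT and SIM1 (adjusted permutation p = 0.00504) and 0.77 for SIM1 and OTP (adjusted permutation p = 0.0105). In the 15 libraries low in AVP, r was 0.59 for OXT and OTP, 0.28 for OXT and SIM1 and 0.33 for SIM1 and OTP. Each r was lower there than over the 20 libraries, and these values were not tested. OXT and AVP themselves had an r of 0.45 in the 15 lower libraries (permutation p = 0.0899, adjusted p = 0.270) and a rho of 0.45 (permutation p = 0.0939, adjusted p = 0.266). In the same 15 libraries r was 0.50 for AVP and OTP (permutation p = 0.0571, adjusted p = 0.200). It was 0.02 for AVP and SIM1 (permutation p = 0.953, adjusted p = 0.969). The hypothalamic markers in a library differed as given above, and their part in these relations was not tested.

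A relation of the opposite sign was found between AVP and POU3F2 in the 15 lower libraries. There r was -0.70 (permutation p = 0.00458, adjusted p = 0.0240) and rho was -0.62 (permutation p = 0.0157, adjusted p = 0.0661). Without the 2 libraries farthest from the median of AVP, r was -0.78. With the stage means removed, r was -0.69 and did not pass the threshold (adjusted permutation p = 0.116). AVP and OXTR had a rho of -0.66 in the same 15 libraries (permutation p = 0.00856, adjusted p = 0.0449) and an r of -0.54 (permutation p = 0.0374, adjusted p = 0.157). For this pair r was -0.41 without the 2 farthest libraries and -0.46 with the stage means removed (adjusted permutation p = 0.480). In these libraries AVP was at most 3.15 FPKM. The other 16 pairs did not pass the threshold by r or by rho.

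The genes whose order over the 20 libraries was most like that of each gene were found by Spearman's rho among 12365 or 12366 named genes with a mean of at least 1 FPKM, as a description. For OXT these were SLC2A1, a glucose transporter gene (rho 0.82), HK3, a hexokinase gene (0.79), and OTP (0.77). For AVP they were OTP (0.79), OXT (0.76) and DPF2 (0.75), with AVP in 2 clusters of libraries. OTP was thus among the closest 3 genes to each peptide gene. For OTP itself the closest genes were ADAP2 (0.83), TP53INP1 (0.83) and FAM46A (0.79). SIM1 was closest to SNCG (0.81), FBXW12 (0.78) and EMP2 (0.78). OXTR was closest to GPR26 (0.81), C3H1orf50 (0.80) and ME3 (0.76), AVPR1A to SPTSSB (0.80), FAM208B (0.68) and TSHZ2 (0.67), and POU3F2 to GLRA3 (0.80), NRSN1 (0.76) and ZDHHC2 (0.74).

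Other genes of the oxytocin and vasopressin system were listed in 4 groups of 54 genes in all. Of these, 53 had values and 51 were tested. By limma 0 of 51 were called in any of the 6 comparisons or by the F test, and the smallest adjusted p was 0.210, for PREP in M2 vs. D1. PREP encodes prolyl endopeptidase, which can cut small peptides. At an unadjusted p under 0.05 there were 7 genes in M6 vs. M4 and 3 in M6 vs. D1, and 2 in each other comparison and in the F test. The share of all genes at that level is given above.

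The first group processes prohormones and forms granules. All 13 of its genes were tested, and its highest 3 genes by mean were CPE, SCG2 and SCG5. CPE, a carboxypeptidase that trims cut peptides, was between 179.5 and 517.5 FPKM. SCG2, a granin of the granules, was between 18.5 and 447 FPKM, and SCG5, which helps the convertase PCSK2 to mature, was between 14.1 and 277.5 FPKM. These genes were thus measured in every library, also where OXT was listed at 0. The median log2 fold change of the group was between -0.71 in M6 vs. M4 and 0.51 in M4 vs. M2.

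The second group holds receptor signalling, release and clearance, with 10 of 13 genes tested. RGS4, which shortens Gq signals, was between 3.26 and 421 FPKM. PLCB1, the phospholipase that Gq activates, was between 20.6 and 130 FPKM, and LNPEP, the aminopeptidase that breaks down oxytocin, was between 13.8 and 40.5 FPKM. CD38, needed for oxytocin release in the mouse, was between 3.06 and 29.9 FPKM. The median over the 20 libraries of the 10 tested genes lay between 1.84 FPKM for TRPM2, a cation channel gene, and 46.1 FPKM for RGS4. AVPR1B and AVPR2 also belong to this group and did not pass the filter.

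In the third group, lineage and transcription, 11 of 11 genes were tested. NR3C1, the glucocorticoid receptor gene, was between 13.0 and 44.6 FPKM, and ARNT2, the partner of SIM1, was between 4.54 and 15.5 FPKM. CAPRIN2, which binds vasopressin mRNA, was highest in M6 replicate 4 at 23.4 FPKM and next in M4 replicate 4 at 21.9, with a median of 10.9. ESR2, the estrogen receptor beta gene, had the same order, with 3.25 and 2.99 FPKM and a median of 1.13. These libraries were also the highest pair for SIM1 and OTP. CAPRIN2 and ESR2 were named after their values were seen, and the highest libraries of the other genes of this group were not listed. Over all 16771 genes tested, the share with its highest value was 5.66% in M6 replicate 4 and 2.99% in M4 replicate 4.

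The fourth group holds peptides and enzymes known from the same neurons or their neighbours, with 17 of 17 genes tested. NTS, the neurotensin gene, was between 1.40 and 355 FPKM, CALB2, the calretinin gene, between 0.989 and 247, and SLC17A6, a glutamate transporter gene, between 0.478 and 231. M6 replicate 4 was the highest library for 5 of the 17, with CRH at 3.65, TRH at 55.0, GAL at 6.58, CARTPT at 108 and SST at 123 FPKM. D1 replicate 4, where OXT was listed at 0, was the highest for 4 of the 17 (PDYN, PENK, NTS and CALB1), and M4 replicate 4, the highest AVP library, for 0 of the 17. Over all 16771 genes tested, the share with its highest value was 5.66% in M6 replicate 4, 11.3% in D1 replicate 4 and 2.99% in M4 replicate 4. TRH and CRH are releasing hormones of the paraventricular nucleus. PDYN, the dynorphin gene that vasopressin neurons also use, was highest in D1 replicate 4 at 128 FPKM, where OXT was listed at 0 and striatum markers were high. PDYN was 37.4 FPKM in D1 replicate 1, 52.7 in M4 replicate 4, 67.7 in M6 replicate 2, 77.8 in M6 replicate 4 and 15.0 in M6 replicate 5.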

How the data were processed

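FPKM values of 21071 genes in 20 libraries were used. The authors trimmed reads with fastp, aligned them to ARS1.2 with HISAT2 2.0.5, assembled transcripts with StringTie 1.3.3b and deposited FPKM per gene. FPKM hides the read number, so no counting error was calculated, and precision rests on the 5 goats per stage. Gene IDs were matched to RefSeq (ARS1.2) for 20610 genes. Nothing was left out among the libraries.

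Genes that reached 0.1 FPKM in 5 or more libraries were fitted as log2(FPKM + 0.1) with limma 3.58.1 (R 4.3.3), with 4 stages, no block and a variance trend. Benjamini-Hochberg adjustment ran over 16771 genes per comparison. Fold changes on this scale understate changes of low genes. The log2 ratio of OXT to AVP was fixed without a pseudocount, and 0.1 FPKM was added to both because OXT was at 0 in 6 libraries. It was compared by exact permutation tests. AVP was treated as clustered because its largest gap exceeded 25% of its log2 range, a rule chosen after the data were seen. The members and the gene lists were chosen with earlier results of these data known. All 7 genes, the 3 genes with the highest mean of each list and the 3 nearest patterns of each gene were named by rule, and other genes were named after their values were seen. PRL, TUBB3 and GNAQ had no match by symbol. Alternatives were other pseudocounts, filters, scalings, variance settings, library weights, a replicate block and leaving libraries out. Python 3.11.15, pandas 2.3.3, numpy 2.4.6, scipy 1.17.1 and matplotlib 3.10.9 were used, and the fit was tested on simulated data.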

Additional observations from a re-analysis of the deposited data

Results flagged for a closer look

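In M4, replicate 4 stood far from the other 4 goats for 3 of the genes, judged by the gap to the next library over the whole range of the stage on the log2(FPKM + 0.1) scale. For OXT it had a log2 value of 6.43 (86.3 FPKM, gap over range 0.900), for AVP 8.62 (392 FPKM, 0.807) and for OTP 2.11 (4.21 FPKM, 0.767), against a critical value of 0.71. In all, 32 groups of 5 libraries were examined, and chance alone marks about 1 in 20. The OXT, AVP and OTP values come from the same library, so the 3 are not independent. In that library 2 of 14 hypothalamus markers reached 1 FPKM, and the part of tissue composition in these values was not tested.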

How the results depend on the processing

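By limma, 0 member genes and 0 system genes were called under each of 33 alternatives, with smallest adjusted p of 0.250 and 0.0791. Not every gene was tested under each. OXTR and AVPR1A, for example, did not pass the filter on a mean of at least 1 FPKM. The log2 fold changes of OXT and AVP stayed above 0 in all 3 comparisons of M6 under these alternatives, from 3.61 to 7.94 for OXT and from 1.16 to 4.82 for AVP. The call of a higher OXT to AVP ratio at M6 depended on the value added. In M6 vs. D1 and M6 vs. M4 the differences were 2.19 and 2.83. Both lost the call with a pseudocount of 1 FPKM (1.50 and 1.42, adjusted p = 0.190, exact permutation). Without the 5 libraries high in markers of other regions the differences were 2.41 and 2.65, without a call (adjusted p = 0.171, exact permutation). So few libraries were left per stage that no comparison could make a call after adjustment. That setting thus says nothing on stability. With medians the differences were 2.29 and 2.72, without a call (adjusted exact permutation p = 0.143). Several assignments share the largest difference of medians, so a call needed every comparison of stages to be at the smallest p. The test of medians thus says nothing on stability. The replicate block, an exact sign-flip test of same-numbered goats, gave the same differences of 2.19 and 2.83 (adjusted p = 0.188). With 5 pairs its smallest p is 0.0625 before adjustment, so it could not make a call and says nothing on their stability. In limma the block changed no call. Numbers did not pair the goats, since 7 of 30 same-numbered pairs of libraries had a correlation of deviations over 0.1 and 3 of 20 libraries correlated best with their own number. Leaving out 1 library gave 1.76 to 2.56 in M6 vs. D1 and 2.40 to 3.20 in M6 vs. M4. Fewer libraries allow fewer assignments, which by itself raises the smallest p. The r of AVP and POU3F2 stayed between -0.76 and -0.58 where it was recomputed but lost its call under 8 alternatives. With 5 goats per stage, the 95% confidence interval of OXT in M6 vs. D1 ran from 0.87 to 9.08 on the log2 scale.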
